A study of Arabidopsis thaliana with 8 samples.

Results

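The flavonoid and anthocyanin decoration genes UGT75C1 (AT4G14090, probe set 245624_at), UGT78D1 (AT1G30530, 261804_at) and 5MAT (AT3G29590, 256924_at), and the flavonoid backbone gene DFR (AT5G42800, 249215_at), were followed in Arabidopsis thaliana stems. They were picked by name, with earlier results of these data known, each with 1 probe set that the annotation pairs with that gene alone. They made up 4 of the 13286 genes that could be named among 22746 probe sets. The gene table lists UGT75C1 under its locus tag and 5MAT as AT5MAT. RNA came from inflorescence stems of Columbia-0 plants aged 1.5 months, grown at 21 °C under 16 h of light and 8 h of dark, and was read on Affymetrix arrays. The 3 groups were wild type (WT, 3 arrays), F5H-OE, labelled as overexpressing ferulate/coniferaldehyde 5-hydroxylase (F5H), the enzyme of the step towards syringyl lignin (3 arrays), and fah-1, labelled as its loss-of-function mutant (2 arrays). No further allele or treatment is given, and the promoter behind F5H in F5H-OE, the number of independent lines and the nature of the fah-1 lesion are not stated in the labels. Each array held stems of 5 plants pooled.

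Flavonoids and lignin share the phenylpropanoid precursor p-coumaroyl-CoA. Chalcone synthase draws it towards flavonoids, and HCT draws it towards monolignols. DFR, dihydroflavonol reductase, turns dihydroflavonols towards anthocyanins and proanthocyanidins and away from flavonols. Decoration enzymes then add sugars and acyl groups, which affect the solubility, stability and colour of the pigments. UGT75C1 adds glucose to anthocyanins, 5MAT puts a malonyl group on that glucose, and UGT78D1 adds rhamnose to flavonols.

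The arrays had nearly equal median intensities, from 112 to 117.7. The RMA processing named for them equalises arrays, so these medians do not measure array quality. F5H-OE replicate 1 differed from its group: its log2 values correlated at 0.9867 on average with those of replicates 2 and 3, and its 3′ to 5′ GAPDH difference, which rises with RNA decay, was 1.47 (log2) against 0.51 to 0.853 on the other arrays. The F5H transcript could not be used to check the labels, since the annotation names no probe set for it. Of 31 tissue marker genes, 3 could be named. RCA (Rubisco activase, of green tissue) was bright in all groups, with log2 intensities of 13.31 to 13.44, WSD1 (stem wax synthesis, epidermis) ranged from 5.99 to 7.66, and SWEET11 (a phloem sucrose exporter) from 5.88 to 9.84, lowest in F5H-OE replicates 2 and 3. None of the xylem or flower markers had a named probe set. In bulk stems, fewer cells of a type and less RNA per cell cannot be told apart.

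UGT75C1 fell in F5H-OE and was the 1 gene of the 4 to change between any groups by limma at an adjusted p under 0.05. Its log2 intensities in WT were 6.39, 6.12 and 6.18 in replicates 1 to 3. In F5H-OE they were 5.46, 5.61 and 5.47, and in fah-1 they were 5.54 and 5.65. All 5 arrays of the lines lay below all 3 WT arrays, and the lines overlapped each other. On the linear scale the means were 75.3 ± 7.42 (SD, n = 3) in WT, 45.8 ± 2.72 (SD, n = 3) in F5H-OE and 48.4 ± 2.44 (SD, n = 2) in fah-1.

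**Figure D1:**
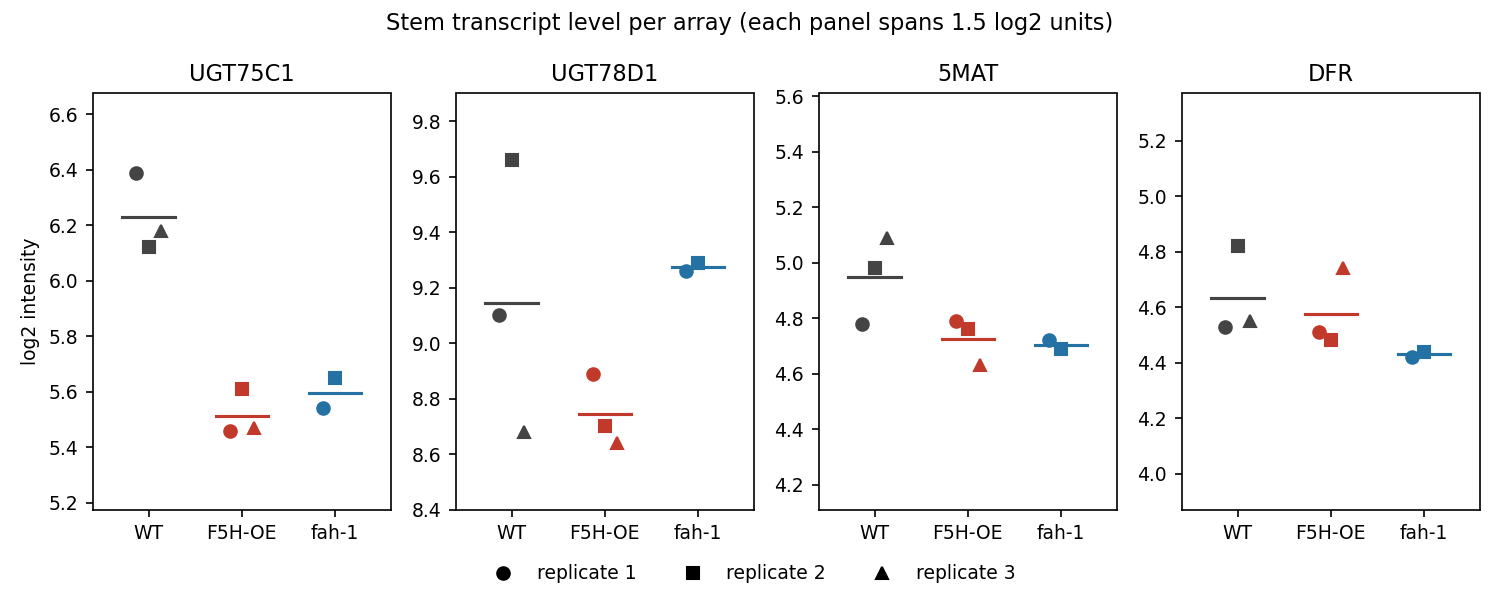
Log2 intensity (y axis) of UGT75C1, UGT78D1, 5MAT and DFR in WT, F5H-OE and fah-1 stems (x axis), 1 panel per gene, with a point per array shaped by replicate number and a bar at the group mean. The 5 UGT75C1 points of F5H-OE and fah-1 lie below the 3 WT points, while WT replicate 2 is the highest point of UGT78D1 and of DFR.

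In F5H-OE against WT, the fall of UGT75C1 was 1.64-fold (log2 fold change -0.71, SE 0.0926, adjusted p = 0.0072, limma over all probe sets). The gap between the lowest WT and the highest F5H-OE array was 0.51 on the log2 scale, against a range of 0.26 within WT and 0.15 within F5H-OE. UGT75C1 was thus 1 of 4 genes called, where 2.65% of all probe sets were called in this comparison and 1.36% in the downward direction. By p it stood at rank 154 of 22746. The call held in all 17 alternative fits that kept the gene, with an adjusted p of 0.0024 to 0.041. Without F5H-OE replicate 1 the log2 fold change was -0.69 (limma, adjusted p = 0.0075).

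In fah-1 against WT, UGT75C1 had nearly as large a difference, with a log2 fold change of -0.64 (SE 0.104, 95% interval -0.87 to -0.40), which did not pass (limma, unadjusted p = 2.5e-04, adjusted p = 0.598, 0.246 to 1.000 over the alternatives). Its p ranked 9 of 22746 in a comparison where 2 probe sets, or 0.00879%, were called. The gap between the groups was 0.48 (log2), against a range of 0.10 between the fah-1 arrays.

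Between the lines, the log2 fold change of UGT75C1 in F5H-OE against fah-1 was -0.08 (SE 0.104, limma, adjusted p = 0.770), with a 95% interval of -0.32 to 0.16. On a linear scale that interval runs from 0.803 to 1.12 times the fah-1 level. The comparisons with WT share the same 3 WT arrays, so the lower values of both lines are not independent observations.

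**Figure D2:**
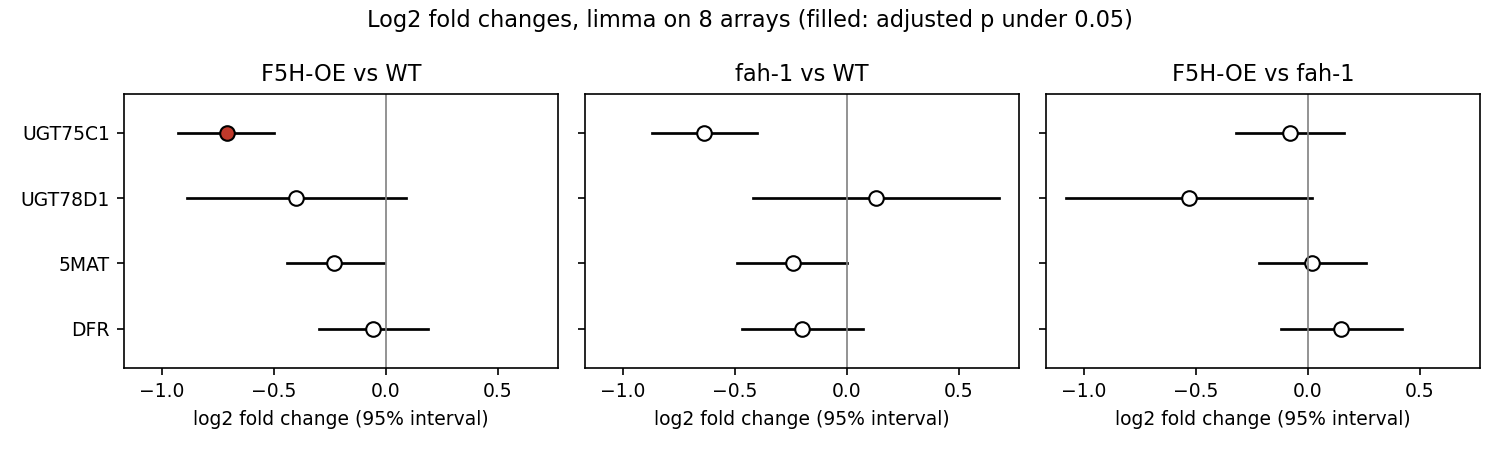
Log2 fold changes (x axis, with 95% intervals) of UGT75C1, UGT78D1, 5MAT and DFR (y axis) in the 3 comparisons, from limma on all 8 arrays, with a filled point where the adjusted p was under 0.05. The filled point is that of UGT75C1 in F5H-OE against WT at -0.71, and in fah-1 against WT the gene stands at -0.64 with an open point.

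5MAT, which acts on the product of UGT75C1, had small differences that did not pass. Its log2 intensities were 4.78, 4.98 and 5.09 in WT, 4.79, 4.76 and 4.63 in F5H-OE, and 4.72 and 4.69 in fah-1. F5H-OE replicate 1 overlapped WT replicate 1, and both fah-1 arrays lay below WT, by 0.06 or more. The log2 fold change was -0.23 in F5H-OE (SE 0.0944, limma, unadjusted p = 0.042, adjusted p = 0.266) and -0.24 in fah-1 (SE 0.106, unadjusted p = 0.048, adjusted p = 0.965). Between the lines it was 0.02, with a 95% interval of -0.22 to 0.26. With limma array weights, which weighted F5H-OE replicate 1 least, 5MAT passed in F5H-OE against WT, at -0.30 (adjusted p = 0.049, 0.049 to 0.540 over the alternatives), in a fit that called 11.1% of all probe sets.

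The probe set of 5MAT was dim, as little as 0.92 above the highest TrpnX control probe set of an array on the log2 scale, TrpnX being a bacterial sequence that plants lack. The lower quartile of all probe sets varied in the same order over the WT arrays, at 4.45, 4.60 and 4.64 in replicates 1 to 3, and was 4.49 to 4.50 in F5H-OE and 4.54 to 4.58 in fah-1. When the arrays were quantile normalized again, the log2 fold change of 5MAT was -0.17 in F5H-OE and -0.25 in fah-1. The part of the dim end of the arrays in these values was otherwise not tested.

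DFR stands upstream of the anthocyanin decoration steps and showed no difference that passed. Its log2 intensities were 4.53, 4.82 and 4.55 in WT, 4.51, 4.48 and 4.74 in F5H-OE, and 4.42 and 4.44 in fah-1. WT replicate 2 and F5H-OE replicate 3 were the high arrays, and the fah-1 arrays were lowest. Against WT the log2 fold change was -0.06 in F5H-OE (95% interval -0.30 to 0.19, limma, adjusted p = 0.833) and -0.20 in fah-1 (-0.47 to 0.07, adjusted p = 0.965). In F5H-OE against fah-1 it was 0.15 (SE 0.118, adjusted p = 0.601). DFR was the dimmest of the 4 against the controls, as little as 0.62 above the TrpnX level (log2), where fold changes are open to background.

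UGT78D1, the flavonol rhamnosyltransferase, varied most between WT arrays. Its log2 intensities there were 9.10, 9.66 and 8.68, a range of 0.98, against 0.25 within F5H-OE (8.89, 8.70 and 8.64) and 0.03 within fah-1 (9.26 and 9.29). The F5H-OE arrays lay inside the lower part of the WT range except replicate 3, just below it, and the fah-1 arrays lay inside its upper part. The residual SD of the gene over the groups, 0.321, was at percentile 93.4 of all probe sets, while those of UGT75C1, 5MAT and DFR were at 37.8, 40.3 and 55.5.

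The log2 fold change of UGT78D1 against WT was -0.40 in F5H-OE (SE 0.213, limma, adjusted p = 0.381) and 0.13 in fah-1 (SE 0.239, adjusted p = 0.980). Both values moved with single WT arrays. Without WT replicate 2 they were -0.15 and 0.38, and without WT replicate 3 they were -0.64 and -0.10, none of which passed. In F5H-OE against fah-1, which uses no WT level, the log2 fold change was -0.53 (SE 0.239, 95% interval -1.08 to 0.02, unadjusted p = 0.056, adjusted p = 0.331). That SE rests on a spread shared with the WT arrays, and fitting just the 5 arrays of the lines gave 0.0993 (limma, adjusted p = 0.089, 0.084 to 0.712 over the alternatives). There the groups did not overlap, with a gap of 0.37.

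Over the 4 genes, groups that did not overlap were 1 in F5H-OE against WT (UGT75C1, lower), where 11.7% of all probe sets were lower without overlap. In fah-1 against WT there were 3 (UGT75C1, 5MAT and DFR, all lower), where 14.9% of all probe sets were, and gaps of 0.06 and 0.08 for 5MAT and DFR were smaller than the ranges of 0.30 and 0.29 within WT. In F5H-OE against fah-1 there were 2, UGT78D1 lower (background 18.9%) and DFR higher (18.0%), the latter by 0.04. The median log2 fold changes of the 4 genes were -0.31, -0.22 and -0.03 in these comparisons, beside -0.02, -0.02 and -0.01 over all probe sets.

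The rest of the pathway was read from lists of 47 flavonoid genes, of which 10 could be named, these 4 included. They were 3 of 10 backbone enzymes and 7 of 13 decoration enzymes, with none of the 4 genes of transport and oxidation or the 20 regulators. In F5H-OE against WT, 1 of the 10 fell (UGT75C1), none rose, and 9 had negative values, with a median of -0.20 beside -0.02 over all probe sets. In that comparison 5 of the 10 had an unadjusted p under 0.05 (limma), as had 17.5% of all probe sets. The 5 were UGT75C1, 5MAT, BAN and UGT89C1, lower, and CHIL, higher. The lists were chosen with earlier results of these data known, so these counts are a description. No gene of the 10 passed in fah-1 against WT, where 5 values were negative and the median was -0.04, and 2 had an unadjusted p under 0.05 (limma, 5.02% of all probe sets), UGT75C1 and 5MAT. None passed in F5H-OE against fah-1 either, where 449 probe sets (1.97%) were called and 2 of the 10, UGT89C1 and BAN, had an unadjusted p under 0.05 (15.7% of all probe sets).

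**Figure D3:**
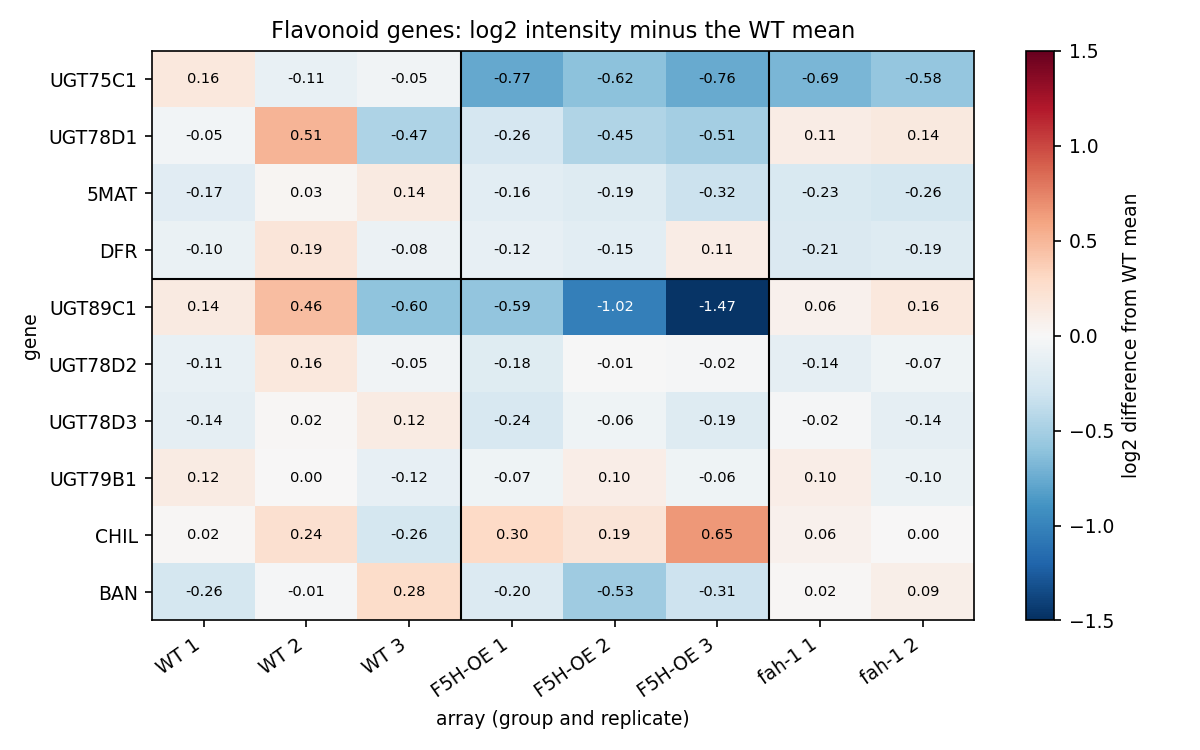
Log2 intensity minus the WT mean for the 10 named flavonoid genes (rows, UGT75C1, UGT78D1, 5MAT and DFR above the line) in each of the 8 arrays (columns), blue below and red above the WT mean. UGT75C1 is blue in all 5 arrays of the lines, and UGT89C1 is blue in the 3 F5H-OE arrays and in WT replicate 3.

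UGT89C1, which adds rhamnose at another position of flavonols than UGT78D1 does, had the largest log2 fold change of the 10 in F5H-OE. Its log2 intensities were 6.66, 6.98 and 5.92 in WT, 5.93, 5.50 and 5.05 in F5H-OE, and 6.58 and 6.68 in fah-1. As with UGT78D1, WT replicate 2 was the highest array, WT replicate 3 the lowest of WT and F5H-OE replicate 3 the lowest of all, while the fah-1 arrays lay close together. Its log2 fold change was -1.03 in F5H-OE against WT (SE 0.288, limma, adjusted p = 0.118) and -1.14 in F5H-OE against fah-1 (SE 0.322, adjusted p = 0.140), and 0.11 in fah-1 against WT. Without F5H-OE replicate 1 the first of these was -1.25 and passed (adjusted p = 0.034), as did the second, at -1.35 (adjusted p = 0.039), in fits that called 7.73% and 6.83% of all probe sets. With array weights both were -1.38 and passed (adjusted p = 0.013 and 0.011), where 11.1% and 12.7% of all probe sets were called. With the replicate block the first passed at -1.03 (limma, adjusted p = 0.031), in a fit that called 1.76% of all probe sets. The second did not pass there, at -0.88 (adjusted p = 0.093). In all, the first passed in 3 of 17 alternatives and the second in 2. Over the alternatives the adjusted p ran from 0.013 to 0.319 and from 0.011 to 0.546.

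**Figure D4:**
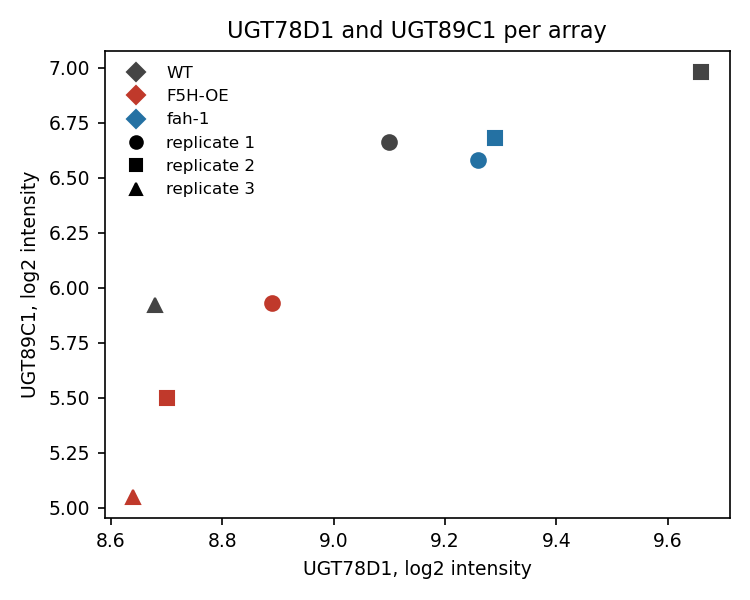
Log2 intensity of UGT89C1 (y axis) against UGT78D1 (x axis), a point per array, coloured by group and shaped by replicate number. WT replicate 2 is at the top right (9.66 and 6.98), the fah-1 arrays lie near WT replicate 1, and WT replicate 3 lies among the F5H-OE arrays at the lower left.

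The other sugar-transferring enzymes differed little. UGT78D2, which adds glucose to flavonols and anthocyanidins, had a log2 fold change of -0.07 in F5H-OE and -0.10 in fah-1 against WT. UGT78D3, a flavonol arabinosyltransferase, was dim and stood at -0.16 and -0.08, and UGT79B1, an anthocyanin xylosyltransferase, at -0.01 and 0.00. Their 95% intervals against WT all lay within -0.38 to 0.24.

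CHIL, a non-catalytic helper of chalcone formation, was the 1 gene of the 10 with a positive value in F5H-OE, at 0.38 (SE 0.154, limma, adjusted p = 0.254). BAN, anthocyanidin reductase of the proanthocyanidin branch and known from the seed coat, stood at -0.35 (SE 0.144, adjusted p = 0.260). It was dim, as little as 0.73 above the TrpnX level.

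At the lignin side of the branch point, HCT had log2 intensities of 12.04 ± 0.177 in WT, 12.10 ± 0.169 in F5H-OE (SD, n = 3 each) and 12.06 ± 0.231 in fah-1 (SD, n = 2). Its log2 fold change was 0.07 in F5H-OE and 0.03 in fah-1, so no difference between groups exceeded the spread between arrays. Of the 18 genes of general phenylpropanoid and monolignol steps, HCT and CCR2 could be named, and neither passed. CCR2, a cinnamoyl-CoA reductase, had log2 intensities of 5.51, 5.41 and 5.40 in WT, 8.68, 5.61 and 5.88 in F5H-OE, and 5.45 and 5.43 in fah-1. Its log2 fold change in F5H-OE against WT, 1.28 (SE 0.687, limma, adjusted p = 0.384), rested mainly on F5H-OE replicate 1, though the groups did not overlap. Among 3 named genes of sinapate esters, a branch that takes up precursors beyond HCT, REF1 was called lower in F5H-OE, at -0.55 (limma, adjusted p = 0.032). In fah-1 REF1 stood at -0.31 and did not pass (limma, adjusted p = 0.951). Its fah-1 arrays lay below WT by 0.16 or more, where 14.9% of all probe sets were lower without overlap. The glucosyltransferases UGT84A1 and UGT84A3 had values of 0.08 and -0.14 in F5H-OE that did not pass.

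Likeness to each gene was measured as the root mean square difference between log2 profiles over the 8 arrays, each centred on its own mean, among 11053 other genes. The profiles closest to UGT75C1 were those of AT2G28600 (0.127), AT3G57490 (0.131) and AT3G23620 (0.149), against 0.343 for a flat line. Their log2 fold changes were -0.51, -0.57 and -0.46 in F5H-OE and -0.34, -0.46 and -0.35 in fah-1 against WT, which the choice by profile fixed in direction and which are given as a description. Closest to UGT78D1 were AT5G54970 (0.127), AT5G12930 (0.129) and AT5G38780 (0.133), against 0.339 for a flat line. Each had WT replicate 2 as the highest array, which the choice by profile made likely. For 5MAT they were AT3G44500, AT5G29210 and AT3G58510 (0.0336 to 0.0432), and for DFR AT2G36920, AT4G31360 and AT5G07950 (0.0446 to 0.0582), against 0.144 and 0.133 for flat lines.

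Among the 4 genes, UGT75C1 and 5MAT differed by 0.268. That was less than the 0.343 of a flat line against UGT75C1, though 537 of the 11053 genes were closer to UGT75C1. Seen from 5MAT, the same 0.268 was above the 0.144 of its flat line, and 8811 genes were closer to 5MAT. DFR differed from UGT75C1 by 0.336, close to the flat line of UGT75C1, and UGT78D1 differed from UGT75C1 by 0.413. The smallest difference was that of 5MAT and DFR, at 0.166, above the 0.144 and 0.133 of their flat lines. DFR was closer to UGT78D2, at 0.0847, where 36 genes were closer still. UGT78D1 and UGT89C1, whose highest and lowest arrays were the same, differed by 0.349. That was above the 0.339 of a flat line against UGT78D1, and 4376 genes were closer to UGT78D1. The measure grows with a difference in the size of swings even where their order is shared. It therefore does not show UGT78D1 and UGT89C1 to be unlike in shape, and likeness of shape alone was not measured. The log2 fold changes of UGT78D1 and UGT89C1 between the lines were -0.53 and -1.14.

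The 4 genes lie on chromosomes 4, 1, 3 and 5. Of the 10 nearest named genes around each in gene order, none changed in any comparison for UGT75C1 (AT4G14020 to AT4G14230), UGT78D1 and 5MAT. Around DFR 1 rose in F5H-OE, the acyltransferase family gene AT5G42830, by 2.18 (log2, SE 0.417, limma, adjusted p = 0.035). In F5H-OE against WT 2.65% of all probe sets were called in either direction. The median log2 fold change of the neighbours of UGT75C1 was -0.01 in F5H-OE and -0.04 in fah-1, with a range of -0.24 to 0.35 in F5H-OE.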

How the data were processed

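Per probe set, the authors deposited linear intensity values from 1-colour arrays of biotin-labelled RNA. RMA is named, per the submitters' processing notes, without a version, chip definition or filter. RMA equalises arrays, which hides any shift common to most transcripts. Of 22810 probe sets, 64 controls were left out. The log2 of the deposited intensity was analysed, with neither pseudocount nor filter on low values.

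Names came from the platform annotation through a gene table of the TAIR10.1 assembly: 13436 probe sets had 1 gene in it, giving 13286 genes, 503 had several and 8730 were not listed. Sequences were not analysed here.

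The test was limma 3.58.1 (R 4.3.3, lmFit, eBayes, 2-sided) with group means over all 8 arrays. Benjamini-Hochberg adjustment ran over 22746 probe sets at 0.05. On simulated arrays with independent noise, the fit recovered 66.0% of planted 1.5-fold changes in F5H-OE against WT and 60.5% in fah-1 against WT. In the deposited data 2 probe sets were called in fah-1 against WT, so these shares need not hold for the real arrays. SEs and 95% intervals are moderated. The labels gave groups and replicate numbers and call the replicates biological. No arrays were identical, and their number limits the precision. The members and lists were chosen with earlier results of these data known. Named genes were the 4 genes, the list genes, the 3 profiles closest to each and called neighbours among 5 on either side. The alternatives recentred the arrays, normalized quantiles again, added a pseudocount of 16, filtered dim probe sets in 2 ways, fitted only the groups compared, let the spread follow a trend or be robust, weighted arrays, used the replicate number as a block, or left out each array.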

Additional observations from a re-analysis of the deposited data

Results flagged for a closer look

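For 3 of the 10 flavonoid genes, UGT78D1, UGT89C1 and BAN, the 3 F5H-OE arrays lay below the WT mean and both fah-1 arrays above it. They are listed for that pattern, so their differences between the lines are a description. The share of all probe sets with that pattern was not counted. F5H-OE lay below fah-1 without overlap, whatever the WT mean, in 18.9% of all probe sets. UGT78D1 had a WT mean of 9.15 (log2) and a difference of F5H-OE from fah-1 of -0.53. UGT89C1 had a WT mean of 6.52 and a difference of -1.14. BAN had a WT mean of 5.03 and a difference of -0.40. In the fit across all probe sets none of these differences passed (limma, adjusted p = 0.331, 0.140 and 0.277). With array weights those of UGT89C1 and BAN did, in a fit that called 12.7% of all probe sets.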

How the results depend on the processing

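Of 201 recomputed log2 fold changes of the 4 genes, 191 kept their direction and their side of the threshold, 1 passed anew and 9 turned sign, and the 9 were of values that passed in no fit. Filters on dim probe sets left out 5MAT and DFR, and the stricter one UGT75C1 too. 5MAT passed in F5H-OE against WT with array weights, at -0.30. DFR in F5H-OE against WT turned to 0.01 when quantile normalized again, and ran from -0.13 to 0.04 with single arrays left out, positive without WT replicate 2. UGT78D1 in fah-1 against WT turned to -0.02 with array weights and -0.01 with the replicate block, and ran from -0.10 to 0.38 with single arrays left out, negative without WT replicate 3. 5MAT in F5H-OE against fah-1 turned to -0.04 when arrays were recentred and -0.03 with array weights, and ran from -0.01 to 0.07 with single arrays left out. The causes were not tested.

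Same-numbered arrays deviated from their group means with correlations of 0.172, 0.333 and -0.0248 in F5H-OE and WT. The main fit did not use the numbers to pair samples. With the replicate block 401 probe sets were called in F5H-OE against WT in place of 603, and 229 in F5H-OE against fah-1 in place of 449. The counts were 379 and 274 in fits of 2 groups and 2526 and 2878 with array weights, and ran from 237 (without F5H-OE replicate 3) to 1758 (without F5H-OE replicate 1) and from 69 (without fah-1 replicate 2) to 1554 with single arrays left out. In fah-1 against WT 1 probe set was called in place of 2 with a pseudocount of 16 and a robust spread, and 1 to 3 with arrays left out. Of the 10 flavonoid genes, the 1 called in F5H-OE against WT became 0 with the stricter filter, 3 with array weights, 2 with the replicate block (UGT75C1 and UGT89C1, the latter at -1.03 with limma's adjusted p = 0.031) and 1 to 2 with arrays left out. In F5H-OE against fah-1 the 0 became 2 with array weights and 0 to 1 with arrays left out.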
